A study of Homo sapiens with 5 samples.

Results

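The lysosomal genes described here are 42 genes chosen by name and by role: 10 cathepsins, 8 glycosidases, 3 sulfatases, 7 lipid hydrolases and cofactors, the peptidase TPP1, 6 membrane proteins, 5 genes of the proton pump (V-ATPase) and 2 transcription factors, out of 38854 genes with an annotated transcript in the deposited tables. They were measured in total RNA of WI-38 cells, a line of human diploid lung fibroblasts with a limited number of divisions. The 5 libraries came from a late culture at population doubling level (PDL) 55, an early culture at PDL 15, and 3 PDL 15 cultures transfected with AUF1 siRNA, HuR siRNA or control siRNA. AUF1 (gene HNRNPD) and HuR (gene ELAVL1) are RNA-binding proteins that bind AU-rich and U-rich sequence. Each group had 1 library, so no comparison below has a replicate check, a test or a spread within a group, and each compares libraries rather than conditions. In bulk RNA, fewer cells that express a gene and less RNA per cell cannot be told apart.

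Lysosomes digest protein, glycan and lipid with acid hydrolases, most of which reach the organelle by mannose 6-phosphate receptors. The V-ATPase pumps protons into the lumen, and heavily glycosylated membrane proteins such as LAMP1 and LAMP2 line the limiting membrane. Many of these genes carry in their promoters an E-box of the CLEAR type, which the transcription factors TFEB and TFE3 bind, and late-passage fibroblasts are known for an enlarged lysosomal compartment and for beta-galactosidase activity, encoded by GLB1.

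The promoter windows of 4 genes are shown because they hold that E-box and because 2 of the genes, ATP6V0D1 and CD63, were among those higher at PDL 55. The sequences are from RefSeq on GRCh38.p14, each from 250 bases before to 50 bases after an annotated start, 5′ to 3′ on the strand of the gene. Capitals mark CACGTG, extended to TCACGTGA, or to the full CLEAR palindrome with G before and C after it, where the flanking bases match. The windows are chr16:67481108-67481407 on the minus strand (ATP6V0D1, which encodes a subunit of the membrane sector of the pump), chr12:55728960-55729259 on the minus strand (CD63, a tetraspanin), chr13:113296989-113297288 on the plus strand (LAMP1) and chr19:7522374-7522673 on the plus strand (MCOLN1, a lysosomal calcium channel).
ATP6V0D1: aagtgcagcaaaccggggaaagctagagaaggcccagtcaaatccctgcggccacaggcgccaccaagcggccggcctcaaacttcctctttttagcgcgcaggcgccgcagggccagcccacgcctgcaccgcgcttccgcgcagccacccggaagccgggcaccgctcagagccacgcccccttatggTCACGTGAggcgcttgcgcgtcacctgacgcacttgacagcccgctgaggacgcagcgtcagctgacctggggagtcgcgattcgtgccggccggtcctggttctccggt
CD63: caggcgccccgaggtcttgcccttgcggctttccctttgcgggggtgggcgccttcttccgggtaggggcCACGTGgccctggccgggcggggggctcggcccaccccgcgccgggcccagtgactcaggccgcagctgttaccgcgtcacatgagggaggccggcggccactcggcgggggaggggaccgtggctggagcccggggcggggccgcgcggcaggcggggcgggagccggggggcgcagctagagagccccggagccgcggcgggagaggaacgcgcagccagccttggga
LAMP1: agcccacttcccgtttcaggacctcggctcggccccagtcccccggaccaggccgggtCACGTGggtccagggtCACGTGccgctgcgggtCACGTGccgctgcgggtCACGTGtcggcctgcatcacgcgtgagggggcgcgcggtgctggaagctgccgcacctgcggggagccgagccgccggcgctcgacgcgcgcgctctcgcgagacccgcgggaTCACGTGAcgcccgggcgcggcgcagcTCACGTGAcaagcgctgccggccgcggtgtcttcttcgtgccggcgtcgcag
MCOLN1: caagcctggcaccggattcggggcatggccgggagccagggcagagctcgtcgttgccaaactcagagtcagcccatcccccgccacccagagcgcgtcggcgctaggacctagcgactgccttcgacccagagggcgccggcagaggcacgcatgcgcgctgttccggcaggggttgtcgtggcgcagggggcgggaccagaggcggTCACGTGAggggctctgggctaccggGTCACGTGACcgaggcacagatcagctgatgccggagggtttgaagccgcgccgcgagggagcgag
LAMP1 held 6 copies of CACGTG in this window, MCOLN1 held 2, and ATP6V0D1 and CD63 held 1 each. Of the 42 genes, 28 had an entry in the promoter table, with 41 windows. CACGTG, searched on both strands, was in 9 of these 41 windows (22%) and in 7.26% of all 35116 windows. The longer TCACGTGA was in 5 member windows (12.2%), those of ATP6V0D1, CTSA, GAA, LAMP1 and MCOLN1, and in 0.98% of all windows. The full palindrome was in windows of GAA and MCOLN1 and in 0.353% of all windows. A match describes the letters and not a bound site. Of the 10 genes higher at PDL 55, ATP6V0D1 and CD63 were those with CACGTG in a window. It was not found for NPC1, NPC2, GLA, SMPD1, ATP6AP1, CTSK, ATP6V0E1 or ATP6V1A. A gene without a promoter entry is not told apart here from one whose window lacks the motif.

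Values are FPKM (fragments per kilobase of transcript length, normalised for library size), summed over the annotated transcripts of each gene, with the sums of the deposited 95% bounds in brackets where given. The control siRNA library stood apart: its coverage was 0.3 per FPKM, against 1.14 to 1.29 in the other 4 libraries, and transcripts assembled from its reads held 80.4% of FPKM times length, against 25.1 to 29%. Most of this was in very short pieces: assembled transcripts under 100 nt held 73.9% in the control siRNA library, against 4.09 to 8.18% in the others. The main results that use the control siRNA library are given with the PDL 15 library as the reference too. All 10 fibroblast markers reached 1 FPKM in at least 1 library. Of 8 myeloid markers, CSF1R (14.4 to 29 FPKM) and PTPRC (0.225 to 2.29 FPKM) did, and TYROBP was listed at 0 in all 5 libraries, with CD14, AIF1 and ITGAM at or near 0. HNRNPD was 20.3 FPKM in the AUF1 siRNA library and 61.2 FPKM in the control siRNA library. ELAVL1 was 9.72 FPKM [8.59 to 10.8] in the HuR siRNA library and 11.8 FPKM [9.38 to 14.1] in the control siRNA library; the bounds overlap, and with assembled transcripts the values were 14.8 and 11.8 FPKM. Against the 16.7 FPKM of the PDL 15 library, the HuR siRNA library was lower with bounds apart (ratio -0.63 on the log2 scale defined below for PDL 55), but at -0.15 with overlapping bounds once assembled transcripts were added. RNA of the target was thus lower with AUF1 siRNA than with control siRNA, while for HuR siRNA the answer turned on the reference library and on the transcripts summed.

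A gene was taken as measured with a mean of at least 1 FPKM over the 5 libraries and no transcript of status FAIL. This held for 36 of the 42 genes. CTSB (FAIL at PDL 15 and in the control siRNA library), CTSD (FAIL at PDL 55 and PDL 15) and IDS (FAIL at PDL 55) had a failed estimate, CTSF and FUCA1 were under 1 FPKM, and no row could be matched to CTSO. CTSB, a cysteine protease, still gave 49.7 FPKM at PDL 55, 64.4 FPKM with AUF1 siRNA and 85.2 FPKM with HuR siRNA. CTSD, the main aspartic protease, gave 23.9 FPKM with AUF1 siRNA, 30.8 FPKM with HuR siRNA and 37.3 FPKM with control siRNA. IDS, which removes sulfate from heparan and dermatan sulfate, gave 5.37 to 7.6 FPKM in the 4 libraries without the failure. FUCA1, a fucosidase, gave 2 FPKM at PDL 55 and 0.084 to 0.862 FPKM elsewhere, and CTSF did not pass 0.844 FPKM.

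An annotated sum of 0 did not mean absent reads. Among the 36 measured genes, 7 were listed at 0 in at least 1 library. PSAP, the precursor of the saposins that assist sphingolipid hydrolases, was listed at 0 at PDL 15, where an assembled transcript of 1101 nt within the gene had 229 FPKM. VIM, one of the fibroblast markers, was listed at 0 in the control siRNA library. Genes at 0 in either library were left out of a ratio, and ratios and counts are by annotated transcripts unless assembled transcripts are named.

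By annotated transcripts CD63 was the most abundant of the lysosomal genes in all 5 libraries. It had 335 FPKM at PDL 55, 205 FPKM at PDL 15, 164 FPKM with AUF1 siRNA, 242 FPKM with HuR siRNA and 105 FPKM with control siRNA. With control siRNA its bounds overlapped those of CTSA (100 FPKM), and in the other 4 libraries they overlapped no other annotated sum. With assembled transcripts PSAP was above CD63 at PDL 15 (229 FPKM) and with control siRNA (263 FPKM). ATP6V0E1, a small subunit of the membrane sector of the pump, came next by annotated transcripts at PDL 55 (226 FPKM), at PDL 15 (98.3 FPKM) and with HuR siRNA (143 FPKM), where its bounds overlapped those of CTSC (126 FPKM). CTSA, a carboxypeptidase that also protects beta-galactosidase and neuraminidase, was the most abundant measured cathepsin at PDL 55 (120 FPKM) and PDL 15 (84 FPKM). It had 106 FPKM with AUF1 siRNA, 119 FPKM with HuR siRNA and 100 FPKM with control siRNA, although 28.5% of its exon bases are shared with other genes, NEURL2 and PLTP among them, from which unstranded reads cannot be told apart. The least abundant measured gene was the sulfatase ARSA, at 0.845 to 1.28 FPKM.

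**Figure D1:**
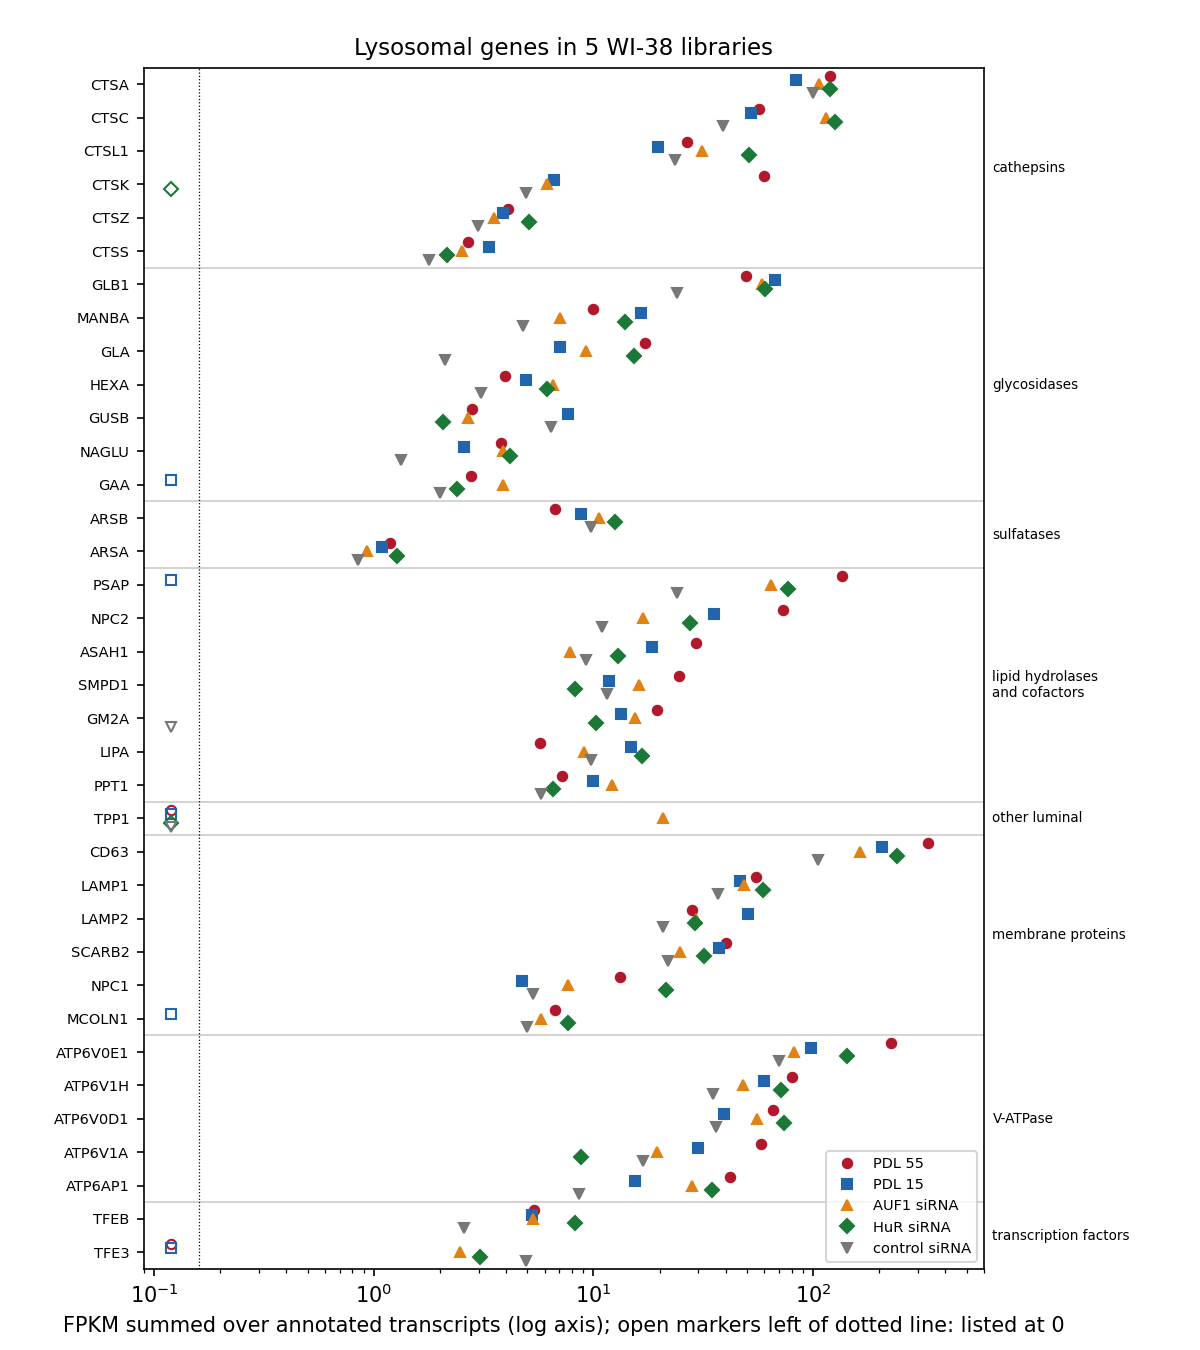
FPKM of the 36 measured lysosomal genes in each of the 5 libraries, on a log axis, with genes in rows grouped by role and 1 marker per library; open markers at the left edge are sums listed at 0. By these annotated sums CD63 lies furthest right in every library, and CTSK at PDL 55 (60 FPKM) lies far from its other values (0 to 6.64 FPKM).

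The comparison of PDL 55 with PDL 15 asks which lysosomal genes differ between late and early passage. Ratios are log2 of (FPKM + 1) in the first library over the second, less the median of all measured genes, which was -0.33 on this scale, so values for low genes are understated. Of 31 lysosomal genes above 0 in both libraries, 10 were at least 2-fold higher at PDL 55 and 0 at least 2-fold lower. Over all 11841 genes the shares were 8.42% higher and 8.23% lower. The median lysosomal ratio was 0.75, and 24 of the 31 genes were above the median gene. Without centring on the median gene, 6 were 2-fold higher and 2 (GUSB and LIPA) 2-fold lower. The median gene itself was then at -0.33, and the share of all genes was not counted on that scale, so these counts have no share beside them. With assembled transcripts, 36 genes could be compared, 11 were higher (the same 10 and FUCA1) and 0 lower, where 8.38% of all genes were higher and 9.04% lower. Against the control siRNA library instead, 11 of 33 were higher and 1 (GUSB) lower, where 13.2% of all genes were higher and 14.1% lower.

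**Figure D2:**
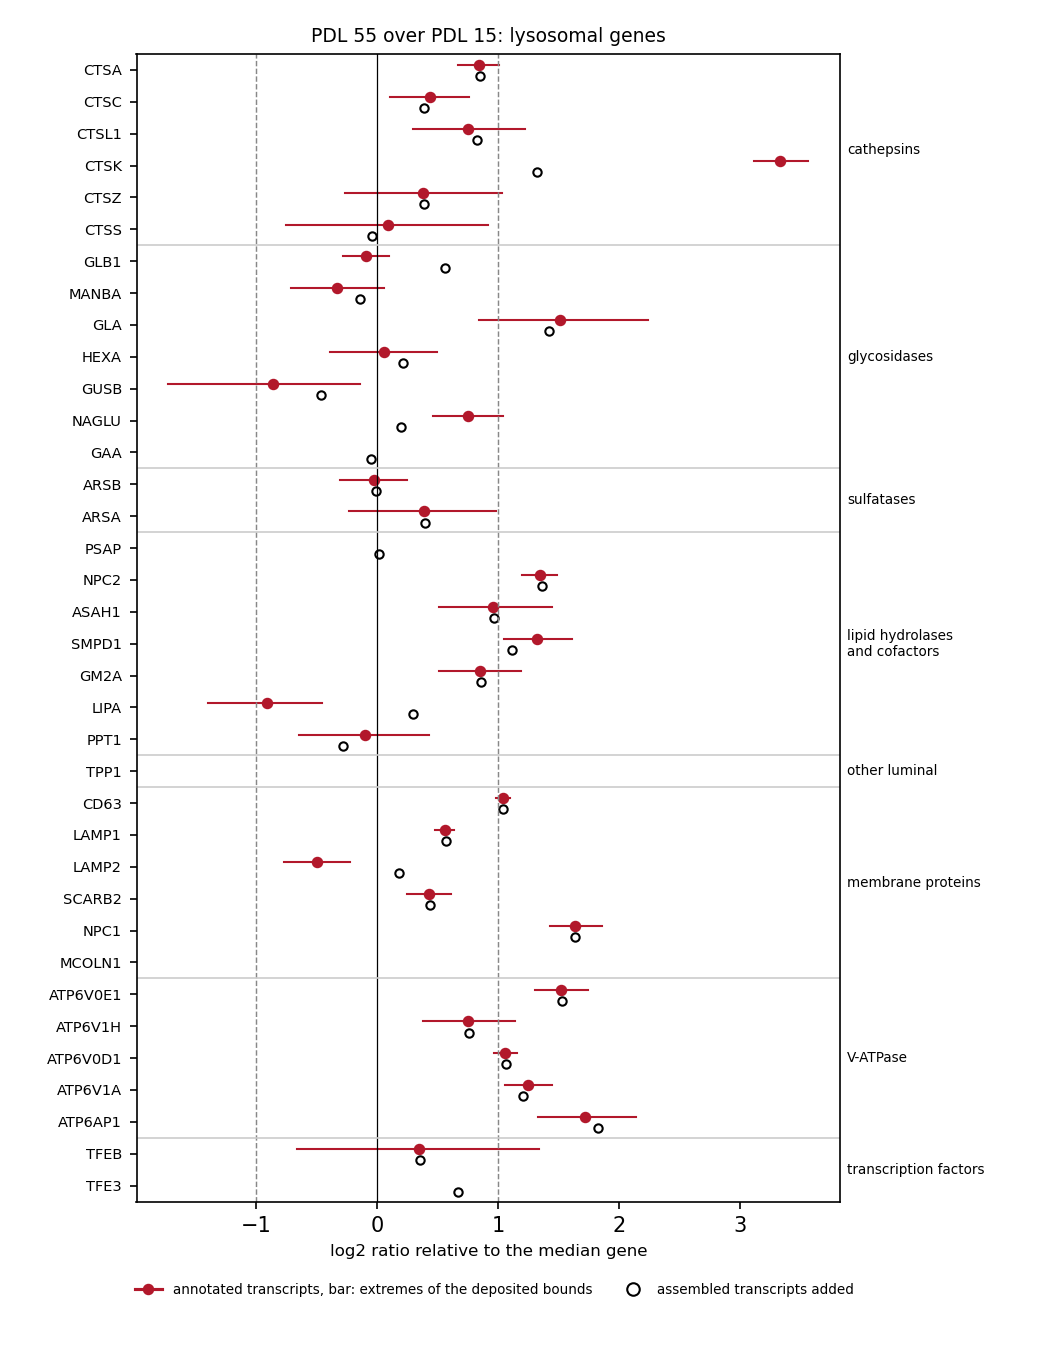
Log2 ratio of PDL 55 over PDL 15 for each lysosomal gene, relative to the median gene; filled points are annotated transcripts with bars from the extremes of the deposited bounds, open points include assembled transcripts, and dashed lines mark 2-fold. The 5 V-ATPase genes all lie right of 0, between 0.75 and 1.72, and CTSK lies at 3.33, or at 1.32 with assembled transcripts.

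Among the groups of lysosomal genes the proton pump had the highest median ratio, 1.25, and 4 of its 5 genes were past 2-fold. ATP6V0E1 had 226 FPKM [213 to 239] at PDL 55 and 98.3 FPKM [89.5 to 107] at PDL 15, with 82.2 FPKM after AUF1 siRNA, 143 FPKM after HuR siRNA and 69.8 FPKM after control siRNA. PDL 55 was the highest of the 5 libraries, and the ratio over PDL 15 was 1.52. ATP6AP1, an accessory protein needed for assembly of the pump, had 42 FPKM [37.4 to 46.6] at PDL 55 and 15.4 FPKM [12.6 to 18.2] at PDL 15, with 28 FPKM after AUF1 siRNA, 34.6 FPKM after HuR siRNA and 8.62 FPKM after control siRNA. Its ratio was 1.72, the largest of the pump genes. Nearly all of the ATP6AP1 value in all 5 libraries came from transcripts not typed as protein-coding. One of these, of 566 nt, had 21.2 FPKM at PDL 55 and 5.82 FPKM at PDL 15. ATP6V1A, the catalytic subunit that hydrolyses ATP, had 57.8 FPKM [54.2 to 61.4] at PDL 55 and 30 FPKM [27.6 to 32.3] at PDL 15, with 19.5 FPKM after AUF1 siRNA, 8.81 FPKM after HuR siRNA and 16.9 FPKM after control siRNA. Most of this came from 1 annotated transcript of 710 nt, at 53.3 FPKM at PDL 55 and 30 FPKM at PDL 15, and the ratio was 1.25, or 0.93 without centring. ATP6V0D1 had 66 FPKM [64.1 to 67.9] at PDL 55 and 39.2 FPKM [37.7 to 40.7] at PDL 15, with 55.8 FPKM after AUF1 siRNA, 73.6 FPKM after HuR siRNA and 36.3 FPKM after control siRNA. Here the HuR siRNA library was the highest, and the ratio of 1.06 came to 0.74 without centring and 0.79 against control siRNA. ATP6V1H, a regulatory subunit of the catalytic sector, had 80.6 FPKM at PDL 55 and 59.8 FPKM at PDL 15, a ratio of 0.75 with bounds apart. Nearly all of its value in both libraries came from transcripts not typed as protein-coding.

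Among 11 other measured V-ATPase subunit genes, 8 were at least 2-fold higher at PDL 55 and 0 lower, with a median ratio of 1.33, where 8.42% of all genes were higher and 8.23% lower. The highest were ATP6V1C1, at 15.8 FPKM at PDL 55 and 2.8 FPKM at PDL 15 (ratio 2.47), and ATP6V0C, which encodes the proteolipid ring, at 75.4 FPKM at PDL 55 and 22.3 FPKM at PDL 15 (ratio 2.04). With assembled transcripts these ratios came to 0.17 and 0.92, and 6 of the 11 genes were 2-fold higher, with a median of 1.02, where 8.38% of all genes were higher.

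**Figure D3:**
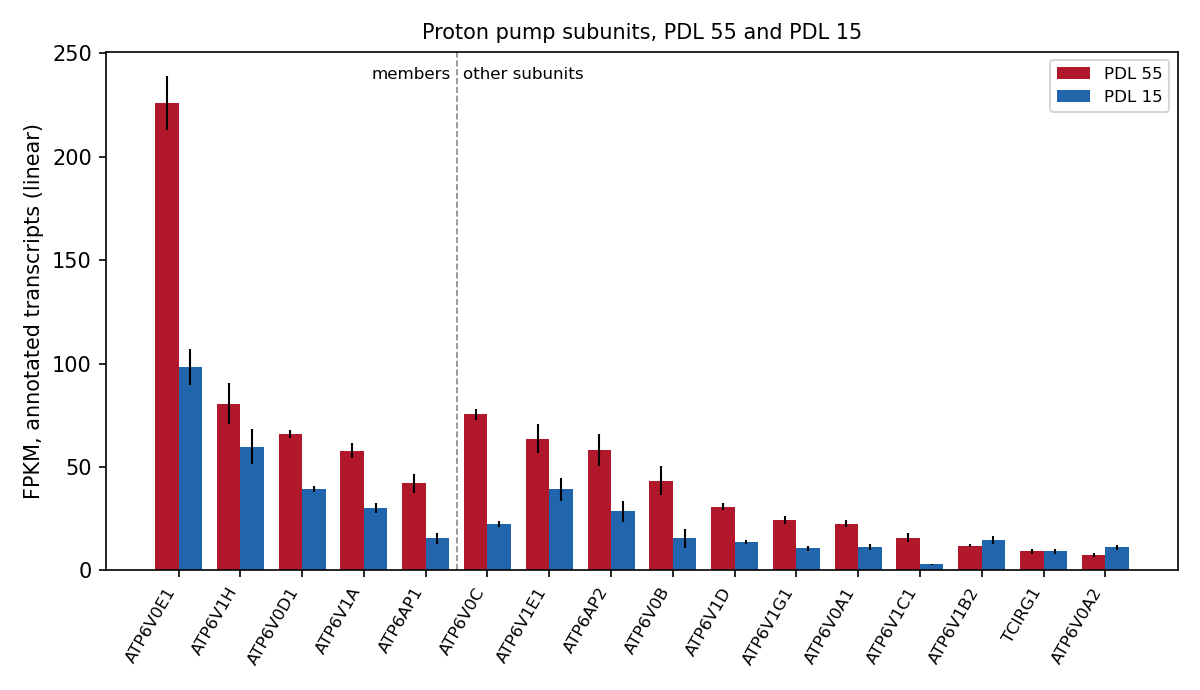
FPKM of the 5 V-ATPase members and 11 other pump subunit genes at PDL 55 (left bar of each pair) and PDL 15 (right bar), on a linear axis from 0, with black lines for the deposited bounds. ATP6V0E1 reaches 226 FPKM at PDL 55 against 98.3 FPKM at PDL 15, and 3 genes on the right (ATP6V1B2, TCIRG1 and ATP6V0A2) are level or lower at PDL 55.

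The cholesterol export proteins were both higher at PDL 55. NPC1, the membrane protein that takes cholesterol out of the lumen, had 13.2 FPKM [12.6 to 13.7] at PDL 55 and 4.73 FPKM [4.1 to 5.35] at PDL 15, with 7.66 FPKM after AUF1 siRNA, 21.5 FPKM after HuR siRNA and 5.33 FPKM after control siRNA. The HuR siRNA library was higher still than PDL 55, with bounds apart, and the PDL ratio was 1.64. NPC2, the soluble protein that hands cholesterol to NPC1, had 72.7 FPKM [69.6 to 75.8] at PDL 55 and 35.4 FPKM [33.2 to 37.5] at PDL 15, with 16.9 FPKM after AUF1 siRNA, 27.5 FPKM after HuR siRNA and 11 FPKM after control siRNA. Its 3 siRNA libraries were all below PDL 15, unlike those of NPC1, and the PDL ratio was 1.35. SMPD1, acid sphingomyelinase, had 24.6 FPKM [22.6 to 26.6] at PDL 55 and 11.8 FPKM [10.3 to 13.3] at PDL 15, with 16.2 FPKM after AUF1 siRNA, 8.24 FPKM after HuR siRNA and 11.5 FPKM after control siRNA. By annotated transcripts PDL 55 was the highest library for SMPD1, and its ratio was 1.32 over PDL 15 and 0.98 over control siRNA. With assembled transcripts SMPD1 was higher with HuR siRNA than with AUF1 siRNA, so the order of the libraries depended on the transcripts summed. Acid ceramidase (ASAH1), at 29.2 FPKM at PDL 55 and 18.5 FPKM at PDL 15, and the ganglioside activator GM2A, at 19.5 and 13.3 FPKM in those libraries, gave ratios of 0.96 and 0.85, just inside 2-fold. LIPA, the acid lipase, lay on the other side, with 5.71 FPKM at PDL 55 and 14.9 FPKM at PDL 15 (ratio -0.91), but 0.30 with assembled transcripts. PPT1, a thioesterase whose exons share 23.4% of their bases with CAP1, had a ratio of -0.10. PSAP had 136 FPKM at PDL 55, 64.6 FPKM with AUF1 siRNA, 76.5 FPKM with HuR siRNA and 24 FPKM with control siRNA. With assembled transcripts its value was 184 FPKM at PDL 55 and 229 FPKM at PDL 15, a ratio of 0.02.

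Of the other membrane proteins, CD63 was 2-fold higher at PDL 55 and the LAMP proteins were not. CD63 had bounds of 329 to 341 FPKM at PDL 55 and 200 to 209 FPKM at PDL 15, a ratio of 1.04 that came to 0.71 without centring. LAMP1 had 54.9 FPKM at PDL 55 and 46.7 FPKM at PDL 15 (ratio 0.56). SCARB2, the receptor that carries glucocerebrosidase to lysosomes, had 40.2 FPKM at PDL 55 and 37.4 FPKM at PDL 15 (ratio 0.43). LAMP2, which takes part in autophagosome fusion, had 28.1 FPKM at PDL 55 and 50.4 FPKM at PDL 15, a ratio of -0.49 that was 0.18 with assembled transcripts. Its annotated transcripts differed between these libraries: ENST00000200639 had 12.8 FPKM at PDL 55 and was listed at 0 at PDL 15, while ENST00000371335 was listed at 0 at PDL 55 and had 7.95 FPKM at PDL 15. MCOLN1 had 6.7 FPKM at PDL 55, 5.79 FPKM with AUF1 siRNA, 7.67 FPKM with HuR siRNA and 5 FPKM with control siRNA, with lower bounds of 0, and was listed at 0 at PDL 15.

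CTSK, a cysteine protease that cleaves collagen, had the largest ratio of the lysosomal genes. It had 60 FPKM [57.9 to 62.1] at PDL 55 and 6.64 FPKM [5.72 to 7.56] at PDL 15, with 6.14 FPKM after AUF1 siRNA and 4.91 FPKM after control siRNA, and was listed at 0 after HuR siRNA. The ratio was 3.33, about 10-fold. An assembled transcript of 1616 nt added 23.2 FPKM at PDL 15 and nothing at PDL 55, which brought the ratio to 1.32, and another added 10.2 FPKM after HuR siRNA. PDL 55 was the highest library by either sum. The gene lies at chr1:150768683-150780799 (hg19). The other 5 measured cathepsins were all above the median gene and under 2-fold, from 0.09 for CTSS to 0.84 for CTSA. CTSC, which activates granule serine proteases, had 56.6 FPKM at PDL 55 and 52.4 FPKM at PDL 15 (ratio 0.44), and CTSL1 (CTSL in current annotation) had 26.6 FPKM at PDL 55 and 19.6 FPKM at PDL 15 (ratio 0.75).

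Glycosidases did not move together, with a median ratio of -0.01. GLA, alpha-galactosidase A, had 17.2 FPKM [13.7 to 20.7] at PDL 55 and 7.03 FPKM [4.74 to 9.32] at PDL 15, with 9.21 FPKM after AUF1 siRNA, 15.3 FPKM after HuR siRNA and 2.11 FPKM after control siRNA. Its ratio of 1.51 was the only one past 2-fold among the 6 glycosidases compared. GLB1, the source of senescence-associated beta-galactosidase activity, had 49.7 FPKM [46.5 to 53] at PDL 55 and 66.8 FPKM [62.2 to 71.4] at PDL 15, with 58.8 FPKM after AUF1 siRNA, 60.2 FPKM after HuR siRNA and 24.1 FPKM after control siRNA. Relative to the median gene this was -0.09, and with assembled transcripts 0.56, so GLB1 RNA was not 2-fold higher at PDL 55 by either sum. A transcript of 547 nt, ENST00000482097, was listed at 0 at PDL 55 and had 45.7 FPKM at PDL 15, while the coding transcript ENST00000307377 had 25.7 FPKM at PDL 55 and 21.1 FPKM at PDL 15. GUSB, beta-glucuronidase, which has pseudogene copies that can share its reads, had 2.79 FPKM at PDL 55 and 7.66 FPKM at PDL 15 (ratio -0.86). HEXA, MANBA and NAGLU had ratios of 0.06, -0.33 and 0.75. The most abundant measured sulfatase, ARSB, had 6.7 FPKM at PDL 55, 8.81 FPKM at PDL 15, 10.6 FPKM with AUF1 siRNA, 12.6 FPKM with HuR siRNA and 9.78 FPKM with control siRNA. Its PDL ratio was -0.02, and that of ARSA was 0.39.

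TFEB had 5.37 FPKM [3.22 to 7.51] at PDL 55 and 5.28 FPKM [3.21 to 7.35] at PDL 15, with 5.33 FPKM after AUF1 siRNA, 8.22 FPKM after HuR siRNA and 2.57 FPKM after control siRNA. Its bounds overlapped across all 5 libraries, and most of its value came from 1 short annotated transcript of 223 nt. TFE3 was listed at 0 at PDL 55 and at PDL 15, and had 2.47 FPKM with AUF1 siRNA, 3.06 FPKM with HuR siRNA and 4.92 FPKM with control siRNA. With assembled transcripts TFE3 had 8.76 FPKM at PDL 55 and 6.77 FPKM at PDL 15.

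Lists of other lysosomal genes, kept apart from the 42, showed the same comparison in neighbouring functions. Of 19 other hydrolases, 6 were at least 2-fold higher at PDL 55 and 0 lower, among them LGMN, asparaginyl endopeptidase, at 20.2 FPKM at PDL 55 and 4.29 FPKM at PDL 15 (ratio 2.33). As above, 8.42% of all genes were higher by annotated transcripts and 8.23% lower. With assembled transcripts 6 of 22 hydrolases were higher and 1 lower, the sulfatase ARSG (-3.01), where 8.38% of all genes were higher and 9.04% lower. Of 17 other membrane proteins, 3 were higher and 0 lower, led by OSTM1, the partner of the chloride exchanger CLCN7 (ratio 1.69), and SLC17A5, the sialic acid exporter (ratio 1.68). Of 8 genes of mannose 6-phosphate sorting, 3 were higher, among them the receptor IGF2R (74.1 FPKM at PDL 55, 44.6 FPKM at PDL 15, ratio 1.05) and NAGPA, which uncovers the tag (ratio 1.40), and SUMF1, which activates sulfatases, was lower (-1.08). With assembled transcripts IGF2R and NAGPA were at 0.74 and 0.52 and SUMF1 at -0.77, and of the sorting genes GGA3 alone passed 2-fold (2.14). CST3, a secreted inhibitor of cysteine cathepsins and the only cystatin compared, had 47.3 FPKM at PDL 55 and 28.7 FPKM at PDL 15 (ratio 1.03). None of 11 genes of TORC1 docking and TFEB control was past 2-fold by either sum. Of 13 autophagy genes, 5 were higher, among them BECN1 (1.61, or 0.49 with assembled transcripts) and GABARAPL1 (1.27), and 3 lower, among them ATG7 (-1.30) and STX17 (-1.22, or -0.98). With assembled transcripts 4 of 14 autophagy genes were higher and 1 lower, ATG7.

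AUF1 siRNA against control siRNA asks how lysosomal RNA differs when AUF1 is lowered at PDL 15. Of 34 lysosomal genes compared, 5 were at least 2-fold higher (CTSC, GLB1, GLA, PSAP and ATP6AP1) and 1 lower (GUSB), where 7.51% of all 11723 genes were higher and 9.33% lower. The median lysosomal ratio was 0.26. With assembled transcripts 2 were higher (CTSC and MANBA) and 3 lower (CTSF, FUCA1 and PSAP) of 38, with a median of 0.00, where 7.29% of all genes were higher and 9.83% lower. Against PDL 15 instead, 2 of 31 were higher (CTSC and ATP6AP1) and 1 lower (GUSB), where 8.41% of all genes were higher and 7% lower.

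CTSC was the one gene past 2-fold by both sums. It had 114 FPKM [105 to 122] with AUF1 siRNA, 126 FPKM [116 to 136] with HuR siRNA and 38.8 FPKM [29.6 to 47.9] with control siRNA, beside 56.6 FPKM at PDL 55 and 52.4 FPKM at PDL 15. The AUF1 siRNA and HuR siRNA libraries were above the other 3 with bounds apart. AUF1 siRNA gave a ratio of 1.34 over control siRNA (1.03 with assembled transcripts) and of 1.33 over PDL 15 (1.07 with assembled transcripts). The gene lies at chr11:88026772-88070955 (hg19). Most of the CTSC value in the AUF1 siRNA library came from 2 short transcripts, of 542 nt (46.3 FPKM) and 733 nt (44.9 FPKM). The HuR siRNA library had 61.2 and 51.6 FPKM for these, and the control siRNA library 16.2 and 21.2 FPKM. Of the 2, the one of 542 nt is not typed as protein-coding. A longer coding transcript of 1903 nt, ENST00000227266, reached 13.4 FPKM in the HuR siRNA library. For it, neither the AUF1 siRNA library nor the control siRNA library had a value above 0. ATP6AP1 had a ratio of 1.40 against control siRNA, or 0.92 with assembled transcripts, and 1.05 against PDL 15. The other 3 rested on the control siRNA library. GLA was at 1.53, but at -0.23 with an assembled transcript of 7.06 FPKM added in that library, and at 0.57 against PDL 15. GLB1 was at 1.07, at 0.34 with assembled transcripts and at 0.05 against PDL 15. PSAP was at 1.20, and at -1.88 with assembled transcripts, since the control siRNA library holds a transcript of 234 nt with 238 FPKM. GUSB had 2.7 FPKM with AUF1 siRNA and 6.4 FPKM with control siRNA (ratio -1.19, or -0.92 with assembled transcripts), with overlapping bounds. The 4 pump genes other than ATP6AP1 had ratios between 0.02 and 0.42, and the 6 membrane proteins between -0.02 and 0.44.

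In the HuR siRNA library 7 of 33 lysosomal genes were at least 2-fold higher than with control siRNA (CTSC, GLA, MANBA, PSAP, NPC1, ATP6AP1 and TFEB) and 2 lower (GUSB and ATP6V1A), where 8.04% of all 11719 genes were higher and 9.76% lower. The median lysosomal ratio was 0.40. Without centring 14 were higher and 1 lower, but the median gene itself was then at 0.31. The share of all genes was not counted without centring, so these 2 counts have nothing to stand against. With assembled transcripts 7 of 38 were higher and 3 lower, and 5 of the higher genes were shared by both sums; of all genes 7.89% were higher and 10.1% lower. Against PDL 15, 5 of 30 were higher and 2 lower, where 7.47% and 6.41% of all genes were. This comparison shares its control with that of AUF1 siRNA, so the values of CTSC, GLA, PSAP and ATP6AP1 in the 2 comparisons are not independent.

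NPC1 had 21.5 FPKM [20.7 to 22.2] with HuR siRNA and 5.33 FPKM [4.01 to 6.66] with control siRNA, a ratio of 1.52 that was 2.07 against PDL 15. It was the highest NPC1 value of the 5 libraries, with bounds apart from all others. The gene lies at chr18:21111400-21166451 (hg19). ATP6V1A had 8.81 FPKM [7.45 to 10.2] with HuR siRNA and 16.9 FPKM [10.5 to 23.2] with control siRNA. The HuR siRNA library was the lowest of the 5, and the ratio of -1.17 was -0.99 with assembled transcripts and -1.56 against PDL 15. The other 4 pump genes went the other way, from 0.69 for ATP6V0D1 to 1.58 for ATP6AP1. CTSC was at 1.37 and at 1.35 against PDL 15. MANBA, beta-mannosidase, had 13.9 FPKM [11.5 to 16.2] with HuR siRNA and 4.76 FPKM [3.4 to 6.11] with control siRNA, beside 7.02 FPKM with AUF1 siRNA, 10 FPKM at PDL 55 and 16.4 FPKM at PDL 15. Its ratio of 1.06, or 1.76 with assembled transcripts, was -0.13 against PDL 15, so the control siRNA library was the low one. GLA was at 2.07, at 0.32 with assembled transcripts and at 1.11 against PDL 15. PSAP was at 1.32 and at -2.12 with assembled transcripts. TFEB (1.06) and GUSB (-1.59) had bounds that overlapped those of the control siRNA library.

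**Figure D4:**
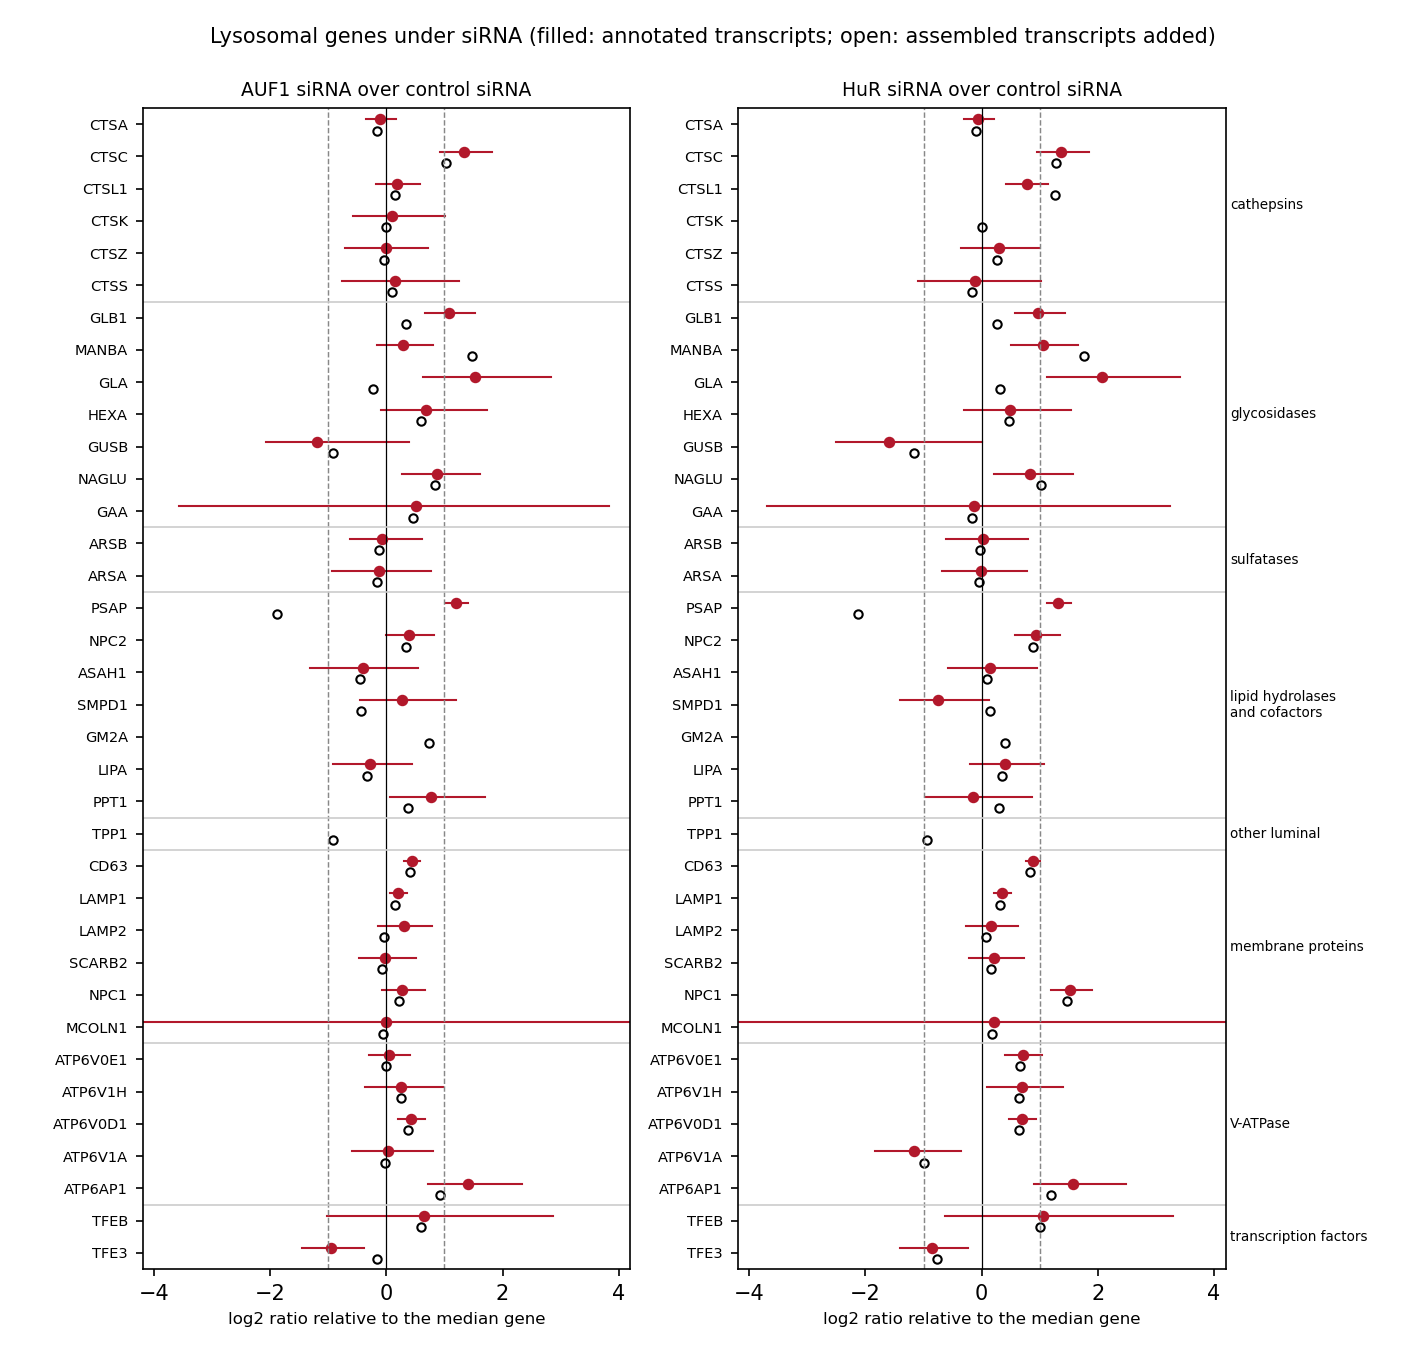
Log2 ratio of AUF1 siRNA (left) and HuR siRNA (right) over control siRNA for each lysosomal gene, relative to the median gene, with symbols and bars as for the PDL ratios; the 2 panels share the control library, and the bars of MCOLN1 run past the axis. CTSC lies right of 2-fold in both panels for both symbols, whereas PSAP lies at 1.20 (left) and 1.32 (right) by annotated transcripts and at -1.88 and -2.12 with assembled ones.

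Set side by side, without the control siRNA library, AUF1 siRNA and HuR siRNA differed by 2-fold in 3 of 34 lysosomal genes, where 4.61% of all 11900 genes were higher with AUF1 siRNA and 4.49% lower. ATP6V1A (19.5 FPKM with AUF1 siRNA, 8.81 FPKM with HuR siRNA, ratio 1.19) and SMPD1 (16.2 FPKM with AUF1 siRNA, 8.24 FPKM with HuR siRNA, ratio 1.02) were higher with AUF1 siRNA. NPC1 (7.66 FPKM with AUF1 siRNA, 21.5 FPKM with HuR siRNA, ratio -1.25) was lower. With assembled transcripts ATP6V1A was at 0.97, SMPD1 at -0.57 and NPC1 at -1.25, and CTSL1 was at -1.12, where 4.68% of all genes were higher and 4.41% lower. Control siRNA against PDL 15, cells of the same PDL, had 0 of 30 lysosomal genes higher and 3 lower: GLB1 (-1.02), MANBA (-1.18) and NPC2 (-1.18), where 11.9% of all 11734 genes were higher and 8.91% lower. GLB1 was at 0.04 with assembled transcripts, where CTSK, MANBA and NPC2 were the 3 lower genes and 0 were higher (12% of all genes were higher and 8.7% lower).

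The other lists were compared with control siRNA too, and their counts stand against the same shares of all genes: by annotated transcripts 7.51% higher and 9.33% lower with AUF1 siRNA and 8.04% higher and 9.76% lower with HuR siRNA, and with assembled transcripts 7.29% and 9.83% with AUF1 siRNA and 7.89% and 10.1% with HuR siRNA. Ratios over PDL 15 are not given for these lists, and several calls rested on the control siRNA library, as values at PDL 15 show. The pump subunit TCIRG1 had 30.3 FPKM with AUF1 siRNA, 24.1 FPKM with HuR siRNA, 5.53 FPKM with control siRNA and 9.16 FPKM at PDL 15. Its ratios over control siRNA were 2.08 and 1.64, or 2.03 and 1.59 with assembled transcripts. By annotated transcripts 1 of 11 other pump subunits, TCIRG1, was past 2-fold with AUF1 siRNA, and 3 were with HuR siRNA, ATP6AP2 among them (1.50, or -0.39 with assembled transcripts). ATP6AP2 had 24.1 FPKM with HuR siRNA, 6.17 FPKM with control siRNA and 28.5 FPKM at PDL 15. With assembled transcripts ATP6V0C (1.18) was also higher and ATP6AP2 (-1.81) lower with AUF1 siRNA, where annotated transcripts gave -0.41 and -0.04. By the sum with assembled transcripts 3 of the 11 were higher with HuR siRNA (TCIRG1, ATP6V0A1 and ATP6V0C). Annotated transcripts there gave 0.48 for ATP6V0A1 and -0.15 for ATP6V0C.

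Of 20 other hydrolases, 1 was higher with AUF1 siRNA (NEU1, neuraminidase, 1.16) and 1 lower (PLA2G15, -1.29, or -0.55 with assembled transcripts), and 5 were higher with HuR siRNA, led by DPP7 (1.54) and SGSH (1.44), with 0 lower, all by annotated transcripts. NEU1 had 15.3 FPKM with AUF1 siRNA, 5.41 FPKM with control siRNA and 11.6 FPKM at PDL 15. DPP7 and SGSH, at 16.5 and 22.2 FPKM with HuR siRNA, had 6.19 and 7.05 FPKM at PDL 15. With assembled transcripts 3 of 22 were higher with AUF1 siRNA (NEU1, PCYOX1 and DPP7) and 6 with HuR siRNA, led by PCYOX1 (2.33), and PLBD2 was lower in both comparisons (-1.90 with AUF1 siRNA, -1.81 with HuR siRNA). By annotated transcripts PLBD2 was at 0.24 with AUF1 siRNA and 0.13 with HuR siRNA. With assembled transcripts PLBD2 was at 2.65 for control siRNA over PDL 15. Of 18 other membrane proteins, 3 were higher with AUF1 siRNA by annotated transcripts, led by the cystine exporter CTNS (1.72) and LAPTM4B (1.14), LAPTM4A was lower (-1.03), and 0 passed 2-fold with HuR siRNA. CTNS had 5.98 FPKM with AUF1 siRNA, 0.867 FPKM with control siRNA and 5.71 FPKM at PDL 15. In the same order LAPTM4B had 33.6, 12.8 and 33.1 FPKM, and LAPTM4A had 52, 93.9 and 94.1 FPKM. CTNS and LAPTM4B with AUF1 siRNA were thus close to PDL 15, and LAPTM4A was not. With assembled transcripts CTNS, LAPTM4B and TPCN2, a channel, were higher and LAPTM4A lower (-1.07) with AUF1 siRNA, and TPCN2 was higher with HuR siRNA (1.30).

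IGF2R had 50.8 FPKM with AUF1 siRNA and 5.83 FPKM with HuR siRNA (ratio 3.05, or 1.41 with assembled transcripts). It was not the only gene of these lists past 2-fold between those libraries. In both directions there were others, among them LITAF (1.61, or -0.15 with assembled transcripts), FLCN (1.51, or -0.69), DPP7 (-1.58, or -0.39) and ATP6AP2 (-1.53, or -1.41). Against control siRNA, where the annotated sum of IGF2R was listed at 0, no sorting gene and no measured cystatin passed 2-fold by annotated transcripts. The cystatins compared were CST3 and, for HuR siRNA, CST1. CSTB was left out of the ratios, and was listed at 1264 FPKM with control siRNA, 39 FPKM with AUF1 siRNA, 70.1 FPKM with HuR siRNA and 25.7 FPKM at PDL 15. With assembled transcripts IGF2R was higher with AUF1 siRNA (1.69), and still no cystatin compared passed 2-fold. AP1S1, a subunit of the clathrin adaptor AP-1, was by the sum with assembled transcripts lower with AUF1 siRNA (-1.52) and HuR siRNA (-1.14). By that sum control siRNA over PDL 15 was at -1.38 for IGF2R and 1.90 for AP1S1. By annotated transcripts AP1S1 was at 0.19 with AUF1 siRNA and 0.57 with HuR siRNA. In the autophagy list ATG9A was higher with AUF1 siRNA (1.44) and with HuR siRNA (1.73), and STX17 lower (-2.19 and -2.15, or -1.60 and -1.40 with assembled transcripts). ATG9A had 46.3 FPKM with AUF1 siRNA, 61.7 FPKM with HuR siRNA, 14.3 FPKM with control siRNA and 25.4 FPKM at PDL 15. In the same order STX17 had 2.08, 2.45, 11.3 and 4.93 FPKM. In the TORC1 list 0 of 11 genes passed 2-fold with AUF1 siRNA by annotated transcripts, and with HuR siRNA LAMTOR1 was at 1.02 and FLCN at -1.05. LAMTOR1 had 33.6 FPKM with HuR siRNA, 12.7 FPKM with control siRNA and 26.9 FPKM at PDL 15. In the same order FLCN had 6.22, 11 and 5.53 FPKM. With assembled transcripts RPTOR, the substrate-binding subunit of TORC1, was at 1.40 with AUF1 siRNA and 1.45 with HuR siRNA, and with HuR siRNA LAMTOR1 was at 0.98 and FLCN at 1.11. RPTOR by annotated transcripts was at 0.21 with AUF1 siRNA and -0.30 with HuR siRNA. For control siRNA over PDL 15 it was at -0.88 with assembled transcripts.

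Because AUF1 and HuR bind AU-rich sequence, the 3′ untranslated regions of the annotated coding transcripts were searched for ATTTA on the transcript strand (GENCODE 29). Of 22 lysosomal genes whose leading coding transcript has such a region, 12 (54.5%) held ATTTA, against 57.3% of 6164 protein-coding genes. CTSC and ATP6AP1, both higher with each siRNA than with control siRNA, were not among the 22 and so were not searched. Some searched regions were short, such as 6 bases for GLA. The nonamer TTATTTATT was in 1 of the 22 (4.55%), against 5.95% of all. That gene was MCOLN1, whose site is shown with the nonamer in capitals.
MCOLN1 site: gaccccgcTTATTTATTtgtagggt
MCOLN1 was at -0.01 with AUF1 siRNA and at 0.22 with HuR siRNA, with bounds that spanned 0. NPC1 held 1 ATTTA in 765 bases, and ATP6V0D1, SMPD1 and CD63 held none.

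TPP1, tripeptidyl peptidase, was listed above 0 only with AUF1 siRNA (20.8 FPKM). Assembled transcripts had 21.3 FPKM at PDL 55, 22.4 FPKM with HuR siRNA and 34.1 FPKM with control siRNA, and none was listed at PDL 15. In addition, 2 annotated transcripts within its span overlap another gene and were given to neither. One of them, ENST00000453338, had 33.2 FPKM at PDL 55, 31.7 FPKM at PDL 15, 70.4 FPKM with AUF1 siRNA, 31.3 FPKM with HuR siRNA and 24.6 FPKM with control siRNA. GAA, acid alpha-glucosidase, had 2.78 FPKM at PDL 55, 3.88 FPKM with AUF1 siRNA, 2.4 FPKM with HuR siRNA and 2 FPKM with control siRNA, with lower bounds of 0, and was listed at 0 at PDL 15. The remaining genes, CTSS, CTSZ and HEXA, stayed within 1.78 to 6.52 FPKM in all 5 libraries.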

How the data were processed

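Per the labels' protocols, Trizol-extracted total RNA was turned into cDNA, amplified with a NuGEN Ovation kit from a single primer, and sequenced on an Illumina Genome Analyzer. Per the submitters' processing notes, TopHat2 2.0.6, Cufflinks 2.0.2, Cuffdiff and the build hg19 were used. The authors deposited, per the file headers, 1 table per library with an FPKM value, its 95% bounds and a coverage signal for each annotated (Ensembl) and assembled transcript. Neither the annotation release nor strandedness nor read numbers are stated in the sources used here, so the number of reads is unknown. The bounds are the authors' own. Coverage per FPKM, the one value here that bears on relative depth, was 0.3 for control siRNA and 1.14 to 1.29 in the others.

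Transcripts were assigned to genes from the identifiers in the tables, then from GENCODE 29, which was used for identifiers, gene types and untranslated regions (96.6% of 160485 annotated transcripts assigned). FPKM was summed over the annotated transcripts of a gene, with the bounds summed likewise, which is wider than a true gene interval. From the deposited FPKM, log2 ratios used a pseudocount of 1 FPKM and were centred on the median of all genes with a mean of at least 1 FPKM and no FAIL transcript; 12615 genes passed. Planned ratios would have included genes at 0, but a gene listed at 0 in either library was left out, since 0 can be a failed estimate. A gene past 2-fold is called higher or lower, with no test. The calculation was tested on simulated data.

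Genes given in all 5 libraries are those past 2-fold in a main comparison with bounds apart, the most abundant of each role, TFEB and TFE3; of other lists, up to the 2 highest and 2 lowest past 2-fold. One gene that this rule names is not reported here. The 42 genes and the other lists were chosen with earlier results of these data known. Analysis used Python 3.11.15 with pandas 2.3.3, numpy 2.4.6 and matplotlib 3.10.9.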

Additional observations from a re-analysis of the deposited data

Results flagged for a closer look

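The values flagged lie outside the annotated sums used for the comparisons: transcripts assembled from the reads had signal within a lysosomal gene whose annotated transcripts were listed at 0 in the same library. At PDL 55 this held for TPP1 (21.3 FPKM) and TFE3 (8.76 FPKM). At PDL 15 it held for PSAP (229 FPKM), TFE3 (6.77 FPKM), GAA (3.95 FPKM) and CTSF (0.984 FPKM). With HuR siRNA it held for TPP1 (22.4 FPKM), CTSK (10.2 FPKM) and CTSF (0.303 FPKM). With control siRNA it held for TPP1 (34.1 FPKM) and GM2A (7.42 FPKM). TPP1 and MCOLN1 at PDL 15 were listed at 0 with no assembled transcript.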

How the results depend on the processing

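No paired analysis was possible because each group has 1 library, and no library could be left out of a group. The median ratio of the lysosomal genes for PDL 55 over PDL 15 lay between 0.42 and 0.85 in all alternatives, and for AUF1 over control siRNA between 0.00 (with assembled transcripts) and 0.54. Of 22 ratios of named genes, 256 alternatives were computed: 222 kept the direction past 2-fold, 30 kept it under 2-fold and 4 were opposite. Those 4 were GLA (-0.23) and PSAP (-1.88) with AUF1 siRNA and PSAP (-2.12) with HuR siRNA, all with assembled transcripts, and MANBA (-0.13) with HuR siRNA against PDL 15. The 10 ratios past 2-fold in every alternative were ATP6AP1, NPC1 and CTSC with HuR siRNA, CTSC with AUF1 siRNA, and ATP6AP1, ATP6V0E1, CTSK, GLA, NPC1 and NPC2 at PDL 55. Some alternatives, such as another filter on the mean or keeping genes with a FAIL transcript, left the FPKM of a named gene unchanged. They moved only the median gene, alike for every ratio. Such alternatives are not separate checks of each ratio, so the 222 does not measure how firm the ratios are.

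Counts of genes past 2-fold moved by over 1.5 times as follows, and the cause was not tested. Shares of all genes were counted only for the main setting, with assembled transcripts and with the other reference library. Counts under the other alternatives have no such share, so they show dependence on the setting and not a difference from other genes. For PDL 55 over PDL 15, with 10 higher and 0 lower, ratios as deposited gave 6 and 2, and the count lower was 1 with rescaling to the protein-coding sum, 1 with a pseudocount of 0.1, 2 with no filter on the mean, 2 with fragment mass and 1 against control siRNA. For AUF1 over control siRNA, with 5 higher and 1 lower, the count higher was 2 with assembled transcripts, 3 without LOWDATA transcripts and 2 against PDL 15, and the count lower was 0 as deposited, with a mean of at least 5 FPKM, with no filter, with 1 transcript per gene and with fragment mass, 2 with a pseudocount of 0.1 and 3 with assembled transcripts. For HuR over control siRNA, with 7 higher and 2 lower, the count higher was 14 as deposited, 12 with no filter and 4 without LOWDATA transcripts, and the count lower was 0 with 1 transcript per gene and 1 as deposited, with a mean of at least 5 FPKM, with no filter, without LOWDATA transcripts and with fragment mass. For AUF1 over HuR siRNA, with 2 higher and 1 lower, the count higher was 0 with assembled transcripts or 1 transcript per gene, 1 as deposited, with no filter or without LOWDATA transcripts, and 4 with genes listed at 0 kept, an alternative chosen after seeing the data; the count lower was 2 with assembled transcripts and with 1 transcript per gene. For control siRNA over PDL 15, with 0 higher and 3 lower, the count higher was 1 without LOWDATA transcripts or with 1 transcript per gene and 4 with genes at 0 kept, and the count lower was 5 as deposited and with no filter.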
